A study of Drosophila melanogaster with 2 samples.

Results

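The genes described here code for the subunits of the proteasome of Drosophila melanogaster, and the question asked of each was whether a CG15269-eGFP fusion protein was recovered at its start. They were taken as the protein-coding genes whose Ensembl symbol begins with Prosalpha, Prosbeta, Rpn or Rpt, the last pair followed by a digit, which gave 48 of the 13945 protein-coding genes on the 6 chromosome arms that carry peaks. By symbol, 14 are genes of the core particle (7 alpha and 7 beta subunits), 18 are genes of the regulatory particle (6 Rpt and 12 Rpn), and 16 are paralogues marked by T or R after the subunit's name, which are treated apart and called testis paralogues. Whether these paralogues are expressed in testis was not measured here. The rule for membership used no measured value, though it was chosen with earlier results of these data known.

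The proteasome degrades proteins that have been tagged with ubiquitin. Its core particle is a barrel of stacked rings, in which the alpha subunits form the gate and some of the beta subunits cut the substrate. The regulatory particle caps the barrel: its base holds the ring of Rpt ATPases that unfold the substrate, with the large Rpn1 and Rpn2 and the ubiquitin receptors Rpn10 and Rpn13, while its lid is built of Rpn3, Rpn5, Rpn6, Rpn7, Rpn8, Rpn9, Rpn11 and Rpn12 and carries the deubiquitinase Rpn11. Drosophila keeps many additional copies of subunit genes, several of which are known to be used in the male germ line. In flies, transcription of subunit genes can be raised by the product of cnc together with Maf-S.

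Binding was measured by chromatin immunoprecipitation and sequencing (ChIP-seq) in 1 group, with 2 biological replicates numbered 2 and 3. The material was whole embryos of mixed sex, aged 6 to 18 h according to the source name (the labels' age entry differs from this and was not used). The flies came from a transgenic line that stably carries CG15269 with GFP at its C terminus, and what drives the transgene is not stated in the labels. The antibody was against GFP according to the sample descriptions. Since whole embryos were used, binding in few cells and weak binding in many cannot be told apart. There is no untagged or otherwise treated group among the samples, so no comparison between conditions and no test over samples was possible, and what follows are values and counts. The files give 4 peak lists: 7029 peaks that passed a threshold on the irreproducible discovery rate (IDR), and 30000 peaks each from the replicates pooled, from replicate 2 and from replicate 3. Each peak has a signal, the authors' own value with no stated unit. Signals of the replicates are set side by side as a description only, since the scale may differ between lists. Depth is unknown, since the peak lists carry no totals of reads. A gene is called bound when an IDR summit lies within 500 bp of any of its annotated transcription start sites (TSSs).

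The bound proteasome genes were mostly genes of the lid. In all 7 of 48 genes were bound, 14.6% (exact Clopper-Pearson 95% interval 6.07 to 27.8%, counting error only), beside 20.6% of all protein-coding genes. These were Rpn3, Rpn5, Rpn9, Rpn11 and Rpn12 of the lid, Rpn13 of the base and Prosalpha4 of the core. The lid thus had 5 of its 8 genes bound (62.5%, interval 24.5 to 91.5%), the other Rpn genes 1 of 4, the Rpt ATPases 0 of 6 (upper end of the interval 45.9%), the alpha subunits 1 of 7, the beta subunits 0 of 7 (upper end 41.0%) and the testis paralogues 0 of 16 (upper end 20.6%). Set as core against regulatory particle, 1 of 14 genes (7.14%, interval 0.181 to 33.9%) stood against 6 of 18 (33.3%, interval 13.3 to 59.0%), and their intervals overlap. Among the 32 constitutive subunit genes 7 were bound (21.9%, interval 9.28 to 40%), close to the 20.6% of all genes. The division of the regulatory particle into lid and base was made after these values were seen, and no difference between the parts was tested.

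The lid count depends on how a shared summit is assigned and on the strength asked of a peak. When a summit counted only for the gene with the nearest TSS, 3 of 8 lid genes were bound, beside 16.4% of all genes, and 4 of the 48 proteasome genes. Among the 3514 IDR peaks of highest signal, 3 of 8 lid genes and 4 of 48 proteasome genes were bound, beside 13.3% of all genes. The core particle had no bound gene under either of these rules.

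**Figure D1:**
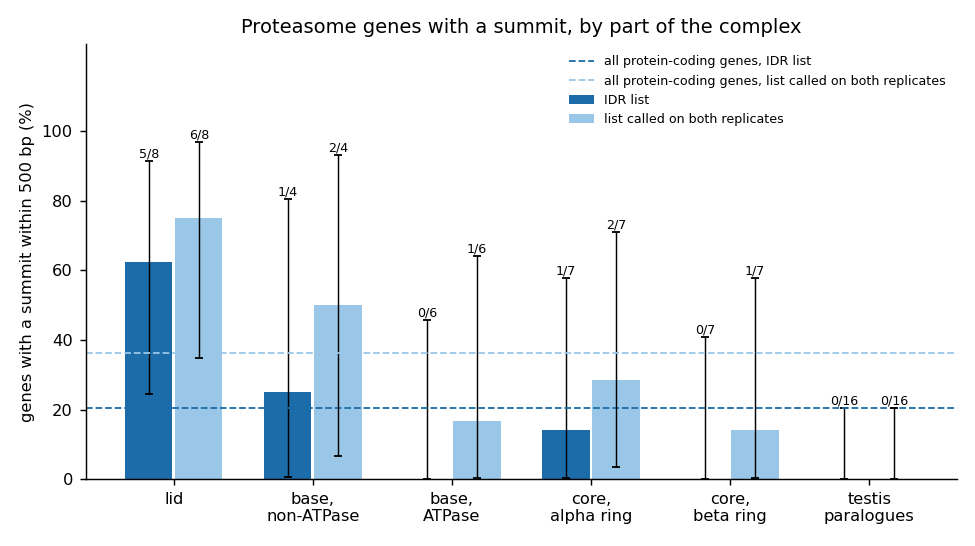
Share of proteasome genes with a summit within 500 bp of a TSS (vertical axis, percent) by part of the complex (horizontal axis), in the IDR list (dark bars) and the pooled list (light bars), with exact 95% intervals and counts above them. Dashed lines give the shares of all protein-coding genes, 20.6% and 36.3%. The lid has the highest bars, with 5 and 6 of 8 genes, and the testis paralogues have none.

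Rpn3, a scaffold subunit of the lid, had the strongest summit of the set. Its peak on 2L (19051696 to 19051938) had a signal of 560.6 and rank 1526 of the 7029 IDR peaks, with the summit 20 bp downstream of the TSS, in the 5' UTR. The overlapping peaks of the replicates had signals of 285.5 (rank 1424 of 30000) in replicate 2 and 291.4 (rank 1577) in replicate 3. The TSS of l(2)37Bb lies 178 bp upstream of that of Rpn3 on the other strand and 198 bp from the IDR summit. The replicate 2 summit lay 4 bp from the IDR summit. That of replicate 3 lay 165 bp upstream of the IDR summit, outside the IDR peak and nearer to the TSS of l(2)37Bb than to that of Rpn3. Replicate 3 had 2 summits within 500 bp of Rpn3, of which this was the stronger. The similar ranks therefore do not show that the replicates ranked the summit in the 5' UTR alike.

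Rpn5, another scaffold subunit, was the only proteasome gene with more than 1 IDR summit. The stronger lay on 3R (5789038 to 5789295, signal 447.6, rank 2067) 298 bp upstream of Rpn5, in an intron of Hat1, the gene of a histone acetyltransferase. The weaker (5789358 to 5789459, signal 268.9, rank 3820) lay 99 bp upstream of Rpn5. Both summits were nearer to a TSS of Hat1 than to that of Rpn5. Hat1 is transcribed the other way and has more than 1 annotated TSS: that closest to Rpn5 lies 109 bp from it and 10 bp from the weaker summit, and another lies 121 bp from the stronger. At the stronger peak the replicates differed in rank: replicate 2 had a signal of 152.8 (rank 3398) and replicate 3 of 289.9 (rank 1593). At the weaker, replicate 3 had 97.4 (rank 5818), and the overlapping peak of replicate 2 was the same 152.8 peak.

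Rpn11 codes for the deubiquitinase that removes ubiquitin chains from substrates before they enter the core. Its peak on 2L (5059769 to 5060178) had a signal of 432.7, rank 2165, and its summit lay 184 bp upstream of the TSS in intergenic sequence. The replicates had signals of 197.6 (rank 2401) and 226.6 (rank 2230) and summits within 4 bp of it. Rpn12, a small lid subunit, had a peak on 3L (16582700 to 16583109, signal 277.5, rank 3690) with the summit 123 bp upstream of its TSS. There the order of the replicates was turned, with 179.4 (rank 2730) in replicate 2 and 115.4 (rank 4838) in replicate 3. The summits of Rpn11 and Rpn12 had no other protein-coding TSS within 500 bp.

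Rpn9, a further scaffold subunit, had the weakest IDR peak of the set, with a signal of 180.7 and rank 5921. The replicate signals were 104.5 (rank 5464) and 88.5 (rank 6465). Its summit lay 147 bp downstream of the nearest Rpn9 TSS, in the 5' UTR. Prosalpha4, of the alpha ring, had a peak on X (16275888 to 16276106, signal 247.5, rank 4214) with the summit 220 bp upstream of its TSS, the greatest distance among the bound genes when the nearest summit of each is taken. This summit lay in an intron of kat80, which codes for a subunit of the microtubule-severing enzyme katanin, 130 bp downstream of the kat80 TSS. Replicate 2 had an overlapping peak of 140.2 (rank 3780) with its summit 104 bp away. The overlapping peak of replicate 3 ranked lower (67.3, rank 8590) and had its summit 225 bp away. Thus neither replicate placed its summit close to the IDR summit. The pooled list held a further Prosalpha4 summit below the IDR threshold (141.8, rank 7673), 19 bp upstream of the TSS.

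The DNA at 6 of the 8 IDR summits is shown so that runs of A and T and promoter elements there can be read beside the values. Each window has 151 bases centred on an IDR summit and is written 5′ to 3′ in the direction of the proteasome gene (sequence from RefSeq, release 6 genome, dm6 coordinates). Windows of 5 bound genes are shown, and those of Rpn9 and Rpn13 are not, so the lines do not cover the full range of A+T content or of elements at the 8 summits. Capitals mark the words TATCGATA, the DRE bound by Dref and BEAF-32, GGTCACACT, the Motif 1 of M1BP, CAGCTG, a core promoter E-box, and TGACNNNGC, the antioxidant response element of Cnc with Maf-S, on either strand.
Rpn3 (chr2L:19051735-19051885, + strand): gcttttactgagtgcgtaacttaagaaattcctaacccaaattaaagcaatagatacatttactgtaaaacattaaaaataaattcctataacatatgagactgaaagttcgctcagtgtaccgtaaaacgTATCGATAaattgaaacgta
Rpn5, stronger summit (chr3R:5789120-5789270, + strand): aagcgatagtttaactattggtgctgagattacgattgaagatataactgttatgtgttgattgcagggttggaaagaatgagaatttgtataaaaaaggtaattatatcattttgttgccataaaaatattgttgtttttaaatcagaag
Rpn5, weaker summit (chr3R:5789319-5789469, + strand): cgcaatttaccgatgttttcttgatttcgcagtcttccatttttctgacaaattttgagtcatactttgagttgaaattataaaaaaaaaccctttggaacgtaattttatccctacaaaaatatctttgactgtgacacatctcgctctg
Rpn11 (chr2L:5059899-5060049, - strand): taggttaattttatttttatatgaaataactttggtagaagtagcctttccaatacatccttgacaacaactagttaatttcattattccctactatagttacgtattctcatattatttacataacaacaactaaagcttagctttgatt
Rpn12 (chr3L:16582830-16582980, + strand): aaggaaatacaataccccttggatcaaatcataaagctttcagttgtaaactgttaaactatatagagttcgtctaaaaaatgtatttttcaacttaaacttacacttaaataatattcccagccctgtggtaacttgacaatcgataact
Prosalpha4 (chrX:16275975-16276125, + strand): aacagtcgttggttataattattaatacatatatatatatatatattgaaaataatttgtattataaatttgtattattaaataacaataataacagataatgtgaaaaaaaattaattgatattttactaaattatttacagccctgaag
The Prosalpha4 window holds an uninterrupted run of 19 A or T bases and no capitals. The Rpn3 window holds a DRE 56 bp downstream of the summit.

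Rpn13, a ubiquitin receptor of the base, was the only bound proteasome gene outside lid and core. Its peak on 2R (13960313 to 13960582) had a signal of 552.0 and rank 1570, with signals of 244.4 (rank 1771) in replicate 2 and 312.0 (rank 1426) in replicate 3. The summit lay 63 bp upstream of the outermost of the 3 annotated Rpn13 TSSs and 208 bp upstream of CtsL1, the gene of the lysosomal protease cathepsin L, which starts 271 bp away on the other strand. Its replicate summits lay 1 and 12 bp from the IDR summit.

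The signals of the 7 bound genes lay within the range of bound genes in general. Their median was 433 (range 181 to 561), beside a median of 408 and quartiles of 239 and 760 over all 2876 bound protein-coding genes. Rpn3 stood at the 64.1st percentile of these, Rpn13 at the 63.1st, Rpn5 at the 54.5th, Rpn11 at the 53.2nd, Rpn12 at the 33.4th, Prosalpha4 at the 27.2nd and Rpn9 at the 10.2nd. The strongest signal of any bound gene was 8020. Of the 8 IDR summits, 6 were upstream of the proteasome gene's TSS, and the median position of all 8 was -111 bp. Of the 2557 summits near any protein-coding TSS 77.5% were upstream, with a median of -123 bp. The latter were measured to the nearest TSS of any gene. The 8 were measured to the proteasome gene's TSS even where another gene's was nearer, so the values are not like for like.

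**Figure D2:**
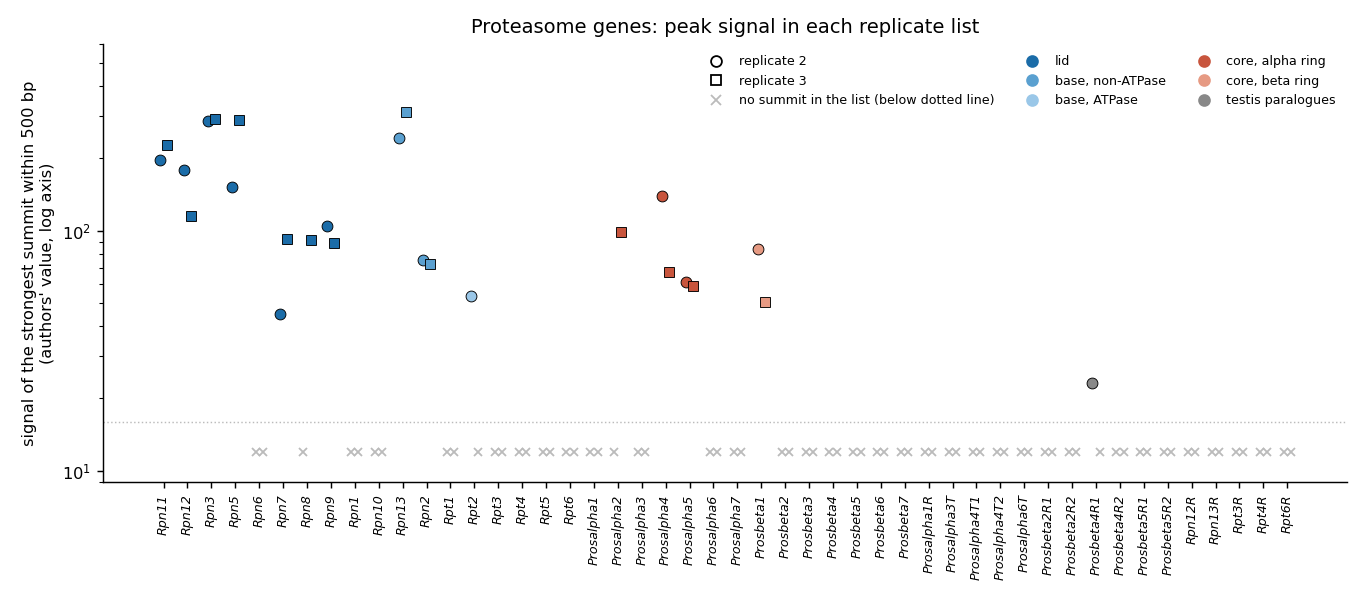
Signal of the strongest summit within 500 bp of a TSS in the list of replicate 2 (circles) and of replicate 3 (squares), on a log axis, for all 48 proteasome genes ordered by part of the complex (colours). Crosses below the dotted line mark genes with no such summit in that list. The highest value in replicate 2 is that of Rpn3 (285.5) and in replicate 3 that of Rpn13 (312.0), and most core genes and all testis paralogues but Prosbeta4R1 have crosses for both replicates.

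Below the IDR threshold, more constitutive genes had a summit. In the pooled list 12 of 48 genes (25%, interval 13.6 to 39.6%) had a summit within 500 bp, beside 36.3% of all protein-coding genes. All were constitutive genes, 12 of 32 (37.5%, interval 21.1 to 56.3%), close to the share of all genes. The added genes were Rpn2, the large scaffold of the base (signal 135.6, rank 8051 of 30000, summit 101 bp upstream), Rpn7 of the lid (129.1, rank 8521, 108 bp upstream), Prosbeta1, a catalytic beta subunit (125.4, rank 8809, 80 bp upstream), Prosalpha5 (116.2, rank 9557, 83 bp upstream) and the ATPase gene Rpt2 (65.4, rank 17028, 29 bp downstream). The deposited -log10 q-values of these pooled peaks were 3.51, 3.28, 3.29, 2.67 and 1.05 in that order. The pooled list runs down to a -log10 q of 0.34, and those of replicates 2 and 3 to 0.40 and 0.33. A summit found only in these lists can thus have weak statistical support. The IDR list ends at a signal of 154.4. Of the added genes Rpn2 and Rpn7 fall closest below it, and of the bound genes Rpn9 is the closest above it. Rpn2 had signals of 75.8 (rank 7981) in replicate 2 and 72.6 (rank 7940) in replicate 3. Rpn7 had 44.8 in replicate 2 and 92.6 in replicate 3, Prosbeta1 83.6 and 50.3, and Prosalpha5 61.2 and 58.9. Rpt2 had 53.7 in replicate 2 and no summit within 500 bp in replicate 3. Rpn2, Rpn7, Prosbeta1 and Rpt2 each shared the summit with a gene on the other strand: Slbp, the stem-loop binding protein gene for histone mRNA, AP-2mu, an adaptor subunit gene, Rrp42, an exosome subunit gene, and CG13599.

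In the lists of single replicates 13 of 48 genes had a summit within 500 bp in replicate 2, beside 37.7% of all protein-coding genes, and 13 of 48 in replicate 3, beside 39.3%. Prosalpha2 (signal 98.9, rank 5723, at -122 bp from its TSS) and the lid gene Rpn8 (91.3, rank 6232, at -186 bp) had a summit in replicate 3 alone, and neither had one in the pooled list. With these, 7 of 8 lid genes had a summit in replicate 3 (87.5%, interval 47.3 to 99.7%) and 6 of 8 in replicate 2 (75%). Rpn6 was the lid gene without a summit in any list. Its nearest IDR summit lay 17482 bp away. In the 7029 strongest peaks of replicate 3 alone, 9 of 48 proteasome genes had a summit, beside 21.8% of all protein-coding genes, with Prosalpha2, Rpn7 and Rpn8 added and Prosalpha4 lost. In those of replicate 2 the 7 genes of the IDR list had one, beside 20.8%.

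**Figure D3:**
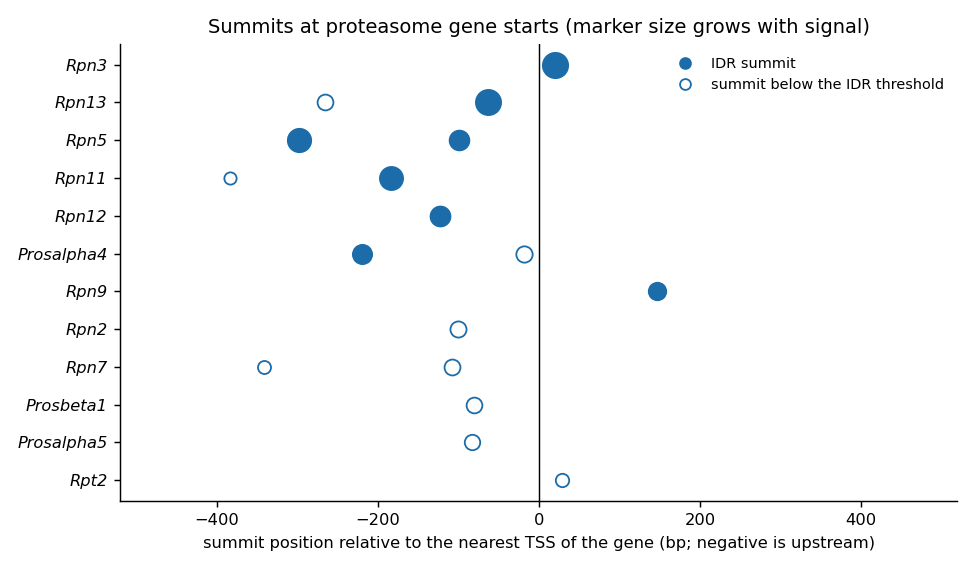
Position of each summit within 500 bp of a proteasome gene, relative to the nearest TSS of that gene in bp (horizontal axis, negative upstream), for the 12 genes with a summit in the pooled list. Filled markers are IDR summits, open markers summits below the IDR threshold, and marker size grows with signal. Most lie upstream, and Rpn3, Rpn9 and Rpt2 have a summit downstream of the TSS.

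No summit of any of the 4 lists lay within 500 bp of 33 proteasome genes. Among them were the genes of the catalytic subunits Prosbeta2 and Prosbeta5, the ATPase genes Rpt1, Rpt3, Rpt4, Rpt5 and Rpt6, the scaffold gene Rpn1 and the ubiquitin receptor gene Rpn10. The share of all protein-coding genes without a summit in any list was not counted, so whether 33 is many was not tested. Taken list by list, the share of all protein-coding genes with such a summit ran from 20.6% (IDR) to 39.3% (replicate 3). The nearest IDR summit to Prosbeta6 lay 1099 bp downstream of its TSS (signal 334.0), in the 5' UTR of CG4098, which makes it the closest outside the window. It was followed by the testis paralogue Prosbeta2R2 (2127 bp, signal 192.1, in the 5' UTR of cno) and Prosalpha3 (2411 bp, signal 1018, in an intron of CG10543). No gene of the set lay between 220 and 1099 bp, so a window of 1000 bp gave the same 7 bound genes. The share of all protein-coding genes was 24.4% at 1000 bp and 20.6% at 500 bp.

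By median distance the testis paralogues were the farthest from summits among the parts of the set. The median distance to the nearest IDR summit was 12537 bp (range 2127 to 68684 bp), beside 4946 bp for the constitutive subunit genes and 6110 bp for all protein-coding genes. The only summit within 500 bp of any of them, in any list, was a weak one of replicate 2 at Prosbeta4R1 (signal 23.3, rank 27344, at -169 bp). The copies of bound genes were not bound. While Rpn12 and Rpn13 were bound, Rpn12R and Rpn13R had their nearest IDR summits 8080 and 12139 bp away, while those of Prosalpha4T1 and Prosalpha4T2 lay 29616 and 37169 bp away. Duplicated DNA bears on 1 pair. For the neighbouring genes Prosalpha1 and Prosalpha1R, 0.0% of the words of 50 bases in the sequence within 500 bp of their TSSs occur once in the 6 arms, so reads there cannot be placed uniquely at that length. For the other 46 genes the share was 94.0% at Rpn3, 96.7% at Prosalpha3 and 100% at the rest. Neither Prosalpha1 nor Prosalpha1R was bound, and both stay among the genes counted as not bound. Leaving them out could change only the number of genes that the bound ones are set against.

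**Figure D4:**
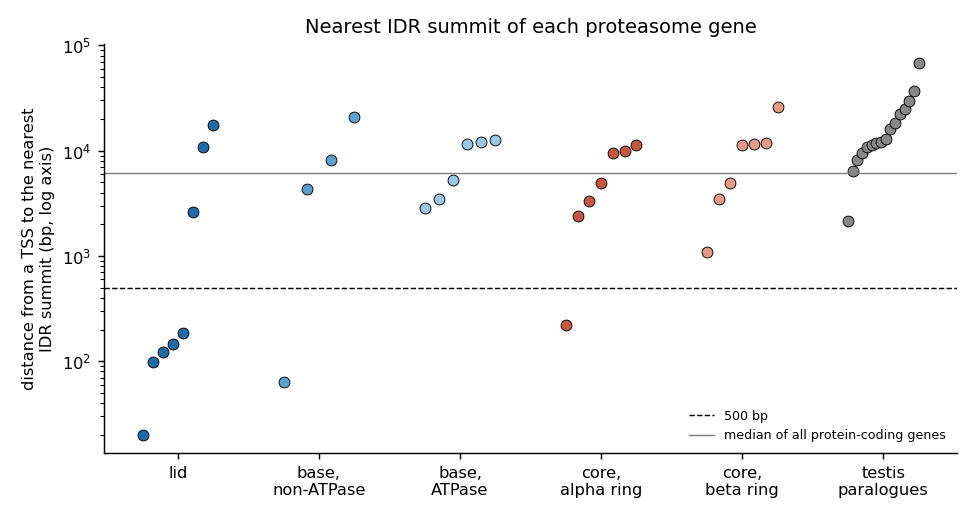
Distance in bp (log axis) from a TSS of each of the 48 proteasome genes to the nearest IDR summit, by part of the complex. The dashed line marks 500 bp and the grey line the median of all protein-coding genes, 6110 bp. The lid genes split into 5 at 20 to 184 bp and 3 at 2641 bp or more, and 15 of the 16 testis paralogues lie above the grey line.

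Many constitutive proteasome genes have divergent promoters. Of the 32 constitutive genes 22 (68.8%) had another gene's TSS pointing away from them no more than 1000 bp upstream, as did 4 of the 16 testis paralogues (25%) and 36.2% of all protein-coding genes. Among constitutive genes 5 of the 7 bound had such a neighbour (71.4%) and 17 of the 25 not bound (68.0%). Over all protein-coding genes the shares were 55.1% of the bound and 31.3% of those not bound. No difference between these shares was tested. At Rpn5 and Prosalpha4 every IDR summit was nearer to the partner's TSS than to that of the proteasome gene.

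The A+T content of the 51 bases at the 8 IDR summits was 73.0% ± 10.7 (SD over summits), beside 66.1% ± 12.3 at the 2557 IDR summits near any protein-coding TSS. This difference was not tested. Their range ran from 52.9% at Rpn9 to 90.2% at Prosalpha4. At 500 bp on either side the mean was 50.5 and 52.7%.

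**Figure D5:**
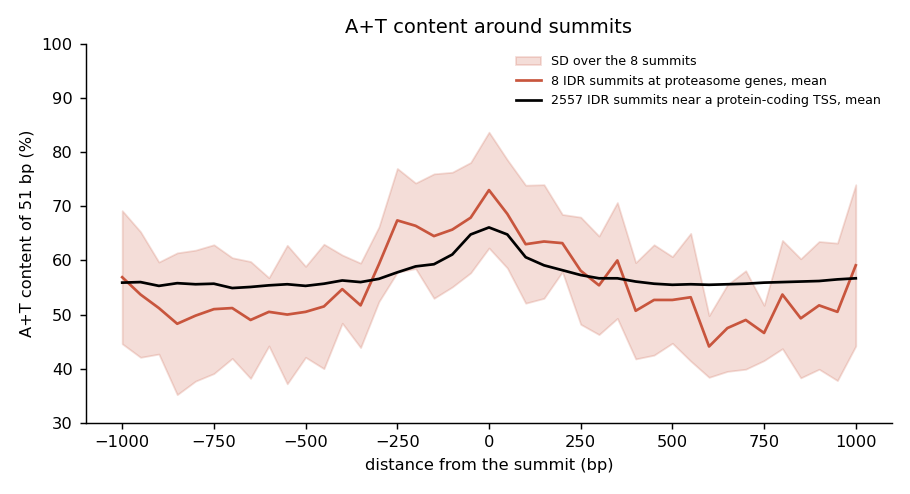
Mean A+T content of 51 bp windows (vertical axis, percent) at distances from -1000 to 1000 bp from the summit (horizontal axis). The red line is the mean of the 8 IDR summits at proteasome genes with the SD as shading, and the black line the mean of the 2557 IDR summits near a protein-coding TSS. Both peak at the summit, at 73.0% and 66.1%.

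Core promoter elements were searched in the 300 bases from 250 before to 49 after the TSS used by most annotated transcripts of each gene, on both strands. The DRE, TATCGATA, was found in 12 of the 48 promoters (25%), beside 9.23% of all 13945. All 12 belong to constitutive genes (37.5% of 32) and none to a testis paralogue. They were divided between bound and unbound genes, with 4 of the 7 bound (Rpn3, Rpn9, Rpn12 and Rpn13) and 8 of the 25 constitutive genes not bound (Prosalpha3, Prosalpha5, Prosalpha6, Prosbeta1, Prosbeta2, Prosbeta6, Rpn7 and Rpt5). Within 100 bp of the summit, a DRE was present at 2 of the 8 IDR summits, those of Rpn3 (56 bp away) and Rpn12 (86 bp away), beside 4.77% of the 2557 promoter summits. Motif 1, GGTCACACT, was found in 6 of 48 promoters (12.5%, beside 6.07% of all), of which only that of Prosalpha4 belonged to a bound gene. Within 100 bp of the summit it was present at 1 of the 8 IDR summits, that of Rpn9 (50 bp away), beside 2.31% of the promoter summits, and CAGCTG at the same 1 of 8, beside 9.66%.

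Promoters with a DRE and an IDR summit are set here beside promoters with a DRE and no IDR summit, to show the element in both. Each line has 40 bases in the direction of the gene, with the DRE in capitals and, as the last item before the sequence, the position of its first base relative to the TSS.
Rpn3, bound (chr2L:19051577-19051616, + strand), -197 bp: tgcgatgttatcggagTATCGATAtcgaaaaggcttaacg
Rpn12, bound (chr3L:16582796-16582835, + strand), -216 bp: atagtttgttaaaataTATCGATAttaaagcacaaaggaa
Rpn7, not bound (chr3R:22462028-22462067, - strand), 3 bp: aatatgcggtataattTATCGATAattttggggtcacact
Rpt5, not bound (chr3R:23752814-23752853, + strand), -46 bp: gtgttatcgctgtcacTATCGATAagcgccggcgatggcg
Prosalpha6, not bound (chr2L:10221319-10221358, + strand), -16 bp: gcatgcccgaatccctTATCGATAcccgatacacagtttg
Prosbeta2, not bound (chr3L:14999925-14999964, + strand), -10 bp: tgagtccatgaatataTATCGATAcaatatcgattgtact
Prosbeta6, not bound (chr3L:16610439-16610478, - strand), -44 bp: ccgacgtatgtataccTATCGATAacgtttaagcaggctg
These lines are examples and do not show where the element lies in general. Over all 12 promoters its first base was at -217 (Rpn13), -216 (Rpn12), -197 (Rpn3) and 26 bp (Rpn9) at the bound genes. At the genes not bound it was at -121 (Prosbeta1), -95 (Prosalpha3), -46 (Rpt5), -44 (Prosbeta6), -20 (Prosalpha5), -16 (Prosalpha6), -10 (Prosbeta2) and 3 bp (Rpn7). These positions all lie between those of Rpn3 and Rpn9, and no bound gene has its position among them. Some elements lie nearer to the TSS of a divergent neighbour, at bound and unbound genes. Such a TSS lies 178 bp upstream of Rpn3, 271 bp of Rpn13, 121 bp of Prosbeta1 and 42 bp of Rpt5. A difference in position was not tested. The Rpn3 element shown is not the DRE in the summit window of Rpn3, which lies downstream of the promoter window and was not counted there. Rpn7 has a summit below the IDR threshold, and the other 4 unbound genes shown have none in any list.

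The antioxidant response element, TGACNNNGC, was found in 6 of 48 promoters (12.5%, beside 8.59% of all): those of Prosalpha2, Prosbeta3, Prosbeta4R2, Rpn1, Rpn7 and Rpt6. None of these genes was bound, and at Prosbeta3 and Rpn1 the match overlaps a Motif 1 match. CAGCTG was found in 3 of 48 promoters (6.25%, beside 17.8%), TATAAA in 19 of 48 (39.6%, beside 45.5%) and GAGAG in 9 of 48 (18.8%, beside 30.2%). Within 100 bp of the summit, TATAAA was present at 5 of the 8 IDR summits, beside 38.8% of the 2557 promoter summits. GAGAG was present at 2 of the 8, beside 22.2%, and TGACNNNGC at 0, beside 4.73%. These matches describe letters only.

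Of the genes that work with the proteasome, 18 of the 72 matched in 7 lists were bound (25%, beside 20.6% of all protein-coding genes). Among 11 genes of assembly and regulation 4 were bound. They were cnc, whose product activates proteasome genes in flies (signal 836.2, rank 860, summit 345 bp downstream of a TSS, with 447.9 in replicate 2 and 385.1 in replicate 3), Pomp, the chaperone that helps the core particle to assemble (721.3, rank 1060, at -205 bp, with 392.0 and 332.7), Keap1, which holds the cnc product back (211.2, rank 5019, at -50 bp, with 105.5 and 119.4), and maf-S, its partner (167.8, rank 6441, at -91 bp, with 94.3 and 74.5). The signals of cnc and Pomp were above that of any proteasome subunit gene, in the IDR list and in each replicate.

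Ubiquitin itself is encoded by 4 genes of the lists, of which Ubi-p63E, the polyubiquitin gene (signal 417.6, 164.0 and 265.0 in replicates 2 and 3), and RpL40, a fusion of ubiquitin with a ribosomal protein (157.8, 51 and 116.0), were bound, the latter by a summit exactly on the 500 bp limit. Of 12 genes of ubiquitin activation and conjugation 3 were bound, the conjugating enzyme genes vih (261.1), Ubc6 (249.9) and eff (217.0). The eff peak was overlapped by a peak of replicate 3 (122.1) and by none of replicate 2, unlike those of the other 17 bound genes of these lists. None of the 7 genes that deliver substrates was bound. Among 17 genes of cullin-RING ligases 4 were bound, with APP-BP1, a subunit of the enzyme that activates Nedd8, the strongest (1158, rank 494), then ago, an F-box substrate receptor (301.4), Cul3 (196.2) and EloC (178.5). Of 12 genes of the anaphase-promoting complex 4 were bound, Cdc16 with the strongest peak of all these lists (1225, rank 433, 632.6 and 583.1 in the replicates), then lmgA (236.0), APC4 (227.0) and Cdc27 (192.2). The COP9 signalosome, whose subunits are related to those of the lid, had 1 of 9 genes bound, alien (290.7, rank 3474). No test was made between this count and the 5 of 8 of the lid.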

How the data were processed

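ChIP-seq peak lists from 1 group of 2 biological replicates were analysed. Per the labels, sonication gave fragments in the range 200 to 800 bp, and dm6 is the assembly. The authors deposited 4 narrowPeak lists, called against a control on each replicate and on both together (the pooled list), with an IDR-thresholded list derived from these, per the text files beside the samples. Each holds a signal and a -log10 q-value per peak, as deposited by the authors. Neither aligner, caller, settings nor IDR threshold is given in the sources used here. The control alignments were not analysed here. A neighbouring gene of the set is not reported here. The 7029 IDR peaks are those of highest signal in the pooled list, and all had a -log10 q of 4.20.

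Summits were the deposited start plus offset, written from 1. Gene models were those of Ensembl release 115, and bases were read from RefSeq's release 6 genome. All peaks and genes lie within its arm lengths. Replicate values at a peak are those of the strongest replicate peak that overlaps it by at least 1 bp. For genes with no IDR peak they are the strongest summit within 500 bp. Other TSS windows, stricter peaks, single replicates, nearest genes only and peaks in place of summits were tried as alternatives. The members and gene lists were chosen with earlier results of these data known. Of 73 pathway names, 72 matched. The grouping into lid and base was made after values were seen. Named were all bound genes, up to 8 with a summit below the IDR threshold, the 3 closest outside the window, genes that share a summit and up to 4 bound genes per pathway list. Other genes were chosen after their values were seen, as examples. The assignment of summits was tested on simulated data. Python 3.11.15, numpy 2.4.6, pandas 2.3.3, scipy 1.17.1 and matplotlib 3.10.9 were used.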

Additional observations from a re-analysis of the deposited data

How the results depend on the processing

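Of 43 recomputed values, 35 were within 1.5 times the reported count or, for the median signal, within the relative SD of 16.4% between the replicates' medians (179 and 227). That SD also holds any difference in scale between the replicate lists. Proteasome genes near an IDR summit numbered 4 in place of 7 both in the 3514 strongest IDR peaks and with the nearest gene of each summit only, and 9 and 7 without replicate 2 and without replicate 3. Core particle genes numbered 0 in place of 1 in both of the former settings and within 200 bp of a TSS, and lid genes, a group chosen after seeing the data, 3 in place of 5 in the former settings, with 7 and 5 when a replicate was left out. The regulatory particle had between 4 and 8 bound genes in place of 6, with 8 and 6 when a replicate was left out. The testis paralogues had 0 in every setting. These counts of 0 are among the 35 values, though the stricter settings could give no other count. Of all protein-coding genes 13.3% were bound in the 3514 strongest IDR peaks, 16.4% with the nearest gene only and 14% within 200 bp. The share was 21.8% without replicate 2, 20.8% without replicate 3, 24.4% within 1000 bp and 22.2% with peaks in place of summits. Within 200 bp of a TSS the median signal was 355.1 in place of 432.7. Rpn5 was then bound by its weaker summit and Prosalpha4 was not bound. The pooled list gave between 9 and 12 genes, beside 27.2 to 41.4% of all protein-coding genes over the same settings. No paired analysis was possible because there is only 1 group. Depth is unknown, so a gene without a peak is one not detected in these lists, and shares of few genes have wide intervals.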
